A study of Mus musculus with 6 samples.

Results

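The glycolysis and hypoxia genes described here are 35 genes of glucose uptake, glycolysis, lactate handling and the response to low oxygen, chosen by symbol from a fixed list. The deposited table holds 33 of them among its 14228 genes, and Pfkp and Slc16a1 were not analysed here. RNA 3′ ends were counted by MARS-seq in stomach fibroblasts from triple-transgenic iLgr5;GLI2A mice, in which an active form of the transcription factor GLI2 can be switched on in Lgr5-expressing cells. Cancer-associated fibroblasts (CAF, n = 3 libraries) came from 8 week old mice that were gavaged with tamoxifen on 5 days and afterwards ate doxycycline chow for 3 weeks, with doxycycline water as well on the first 3 days. Normal fibroblasts (normal, n = 3 libraries) came from mice of the same strain and age that received corn oil and neither drug, so the drugs and the cancer cannot be told apart. The cells were live podoplanin-positive cells that remained after CD31-positive, CD45-positive and EpCAM-positive cells had been gated out, and CAF libraries 1, 2 and 3 pooled 1, 2 and 2 mice while normal libraries 1, 2 and 3 pooled 1, 1 and 2 mice.

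In glycolysis, glucose enters the cell through GLUT transporters, is trapped by hexokinase and is split and oxidised to pyruvate, which lactate dehydrogenase can turn into lactate for export. When oxygen is low, the prolyl hydroxylases of the EGLN family no longer mark HIF1A for destruction, and HIF1A with its partner ARNT binds the core sequence ACGTG or GCGTG near target genes, which include most glycolytic genes. Lactate export by stromal fibroblasts is a known trait of fibroblasts that surround tumours of other organs.

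The libraries held 644522 to 6422568 counts in CAF and 768420 to 3259644 counts in normal fibroblasts. Levels are given as CPM, the count of a gene relative to the library size as scaled by edgeR. Gland cell RNA and GC content moved with the groups or across them. Markers of gastric gland cells (28 of 30 listed genes, from lists for enteroendocrine, parietal, chief, and pit and neck cells) made up 0.643% to 0.890% of CAF counts, against 20.4%, 16.7% and 4.22% in normal libraries 1, 2 and 3. The other property was a trend with the GC content of transcripts. GC-rich genes were relatively high in CAF library 1 and normal libraries 1 and 3, and relatively low in CAF libraries 2 and 3 and normal library 2 (Pearson's r across 10022 genes, which are not replicates, from 0.166 to 0.349 and from -0.378 to -0.235). Fibroblast markers (16 genes) made up 2.02%, 4.41% and 5.16% of counts in CAF libraries 1, 2 and 3. They made up 1.14%, 1.6% and 4.94% in normal libraries 1, 2 and 3, and none of them was at 0 in any library. Markers of general epithelium (13 genes) made up 0.436%, 0.2% and 0.197% of CAF counts and 0.438%, 0.264% and 0.123% of normal counts. Epcam, whose protein was used to remove epithelial cells, was at 233, 127 and 114 CPM in CAF and 150, 78.5 and 13.8 CPM in normal libraries. The part of epithelial RNA in the results was not tested. Pdpn was at 27.8 to 121 CPM in CAF and 5.71 to 34.2 CPM in normal libraries. The endothelial marker Pecam1 had 0, 27 and 31 counts in CAF libraries 1, 2 and 3 and 23, 7 and 0 counts in normal libraries 1, 2 and 3. The leukocyte marker Ptprc had 0, 40 and 10 counts in CAF and 0, 3 and 0 counts in normal libraries. Immune markers (9 genes) made up 0.0107%, 0.187% and 0.0389% of CAF counts and 0.00485%, 0.0732% and 0.0113% of normal counts, highest in CAF library 2, and their part in the results was not tested.

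The lactate exporter Slc16a3, the hexokinase Hk2, the oxygen-sensing hydroxylase Egln3 and the lactate dehydrogenase subunit Ldha stood at higher levels in all 3 CAF libraries than in any normal library, but no member passed the main test. These 4 of the 32 members tested compare with 10.6% of all genes tested that were likewise wholly above normal. By edgeR's quasi-likelihood test with adjustment over 10148 genes, 0 of the 32 members tested passed, where 1.10% of all genes did (0.897% higher and 0.207% lower in CAF), and 6 had an unadjusted p under 0.05 (15.3% of all genes did). Of these 6, Slc16a3, Hk2, Egln3 and Hif1a were higher in CAF and Ldhb and Car9 were lower. With limma-voom, too, 0 members passed. With DESeq2, which called 7.28% of all genes (3.12% higher and 4.17% lower in CAF), 3 of 31 members passed: Slc16a3 and Hk2 were higher and Ldhb lower in CAF. The authors' deposited table has the same number, 2 higher and 1 lower of 33, at an adjusted p under 0.05 (6.37% of all its genes). The fold change was positive for 26 of the 32 members (81.2%), with a median log2 fold change of 0.46, and for 53.9% of all genes tested, with a median of 0.06. Aldoc, the brain-type aldolase, was the 1 member below the filter on low counts, at 0.690 to 1.46 CPM in CAF and at most 1.27 CPM in normal libraries.

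**Figure D1:**
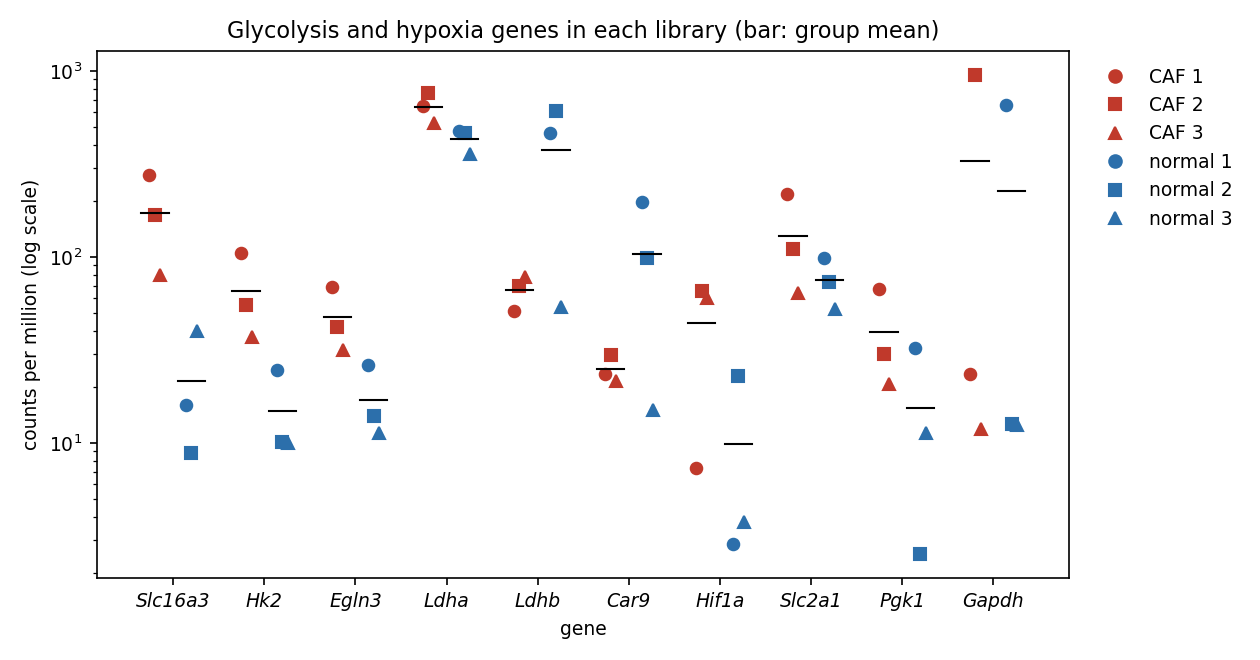
Level of 10 members in each library, in CPM on a log axis, CAF libraries in red left of the normal libraries in blue, with the mark shape giving the library number and the bar the group mean. Slc16a3, Hk2, Egln3 and Ldha do not overlap between the groups, Ldhb and Car9 are high in normal libraries 1 and 2 only, and Gapdh is high in CAF library 2 and normal library 1 only.

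**Figure D2:**
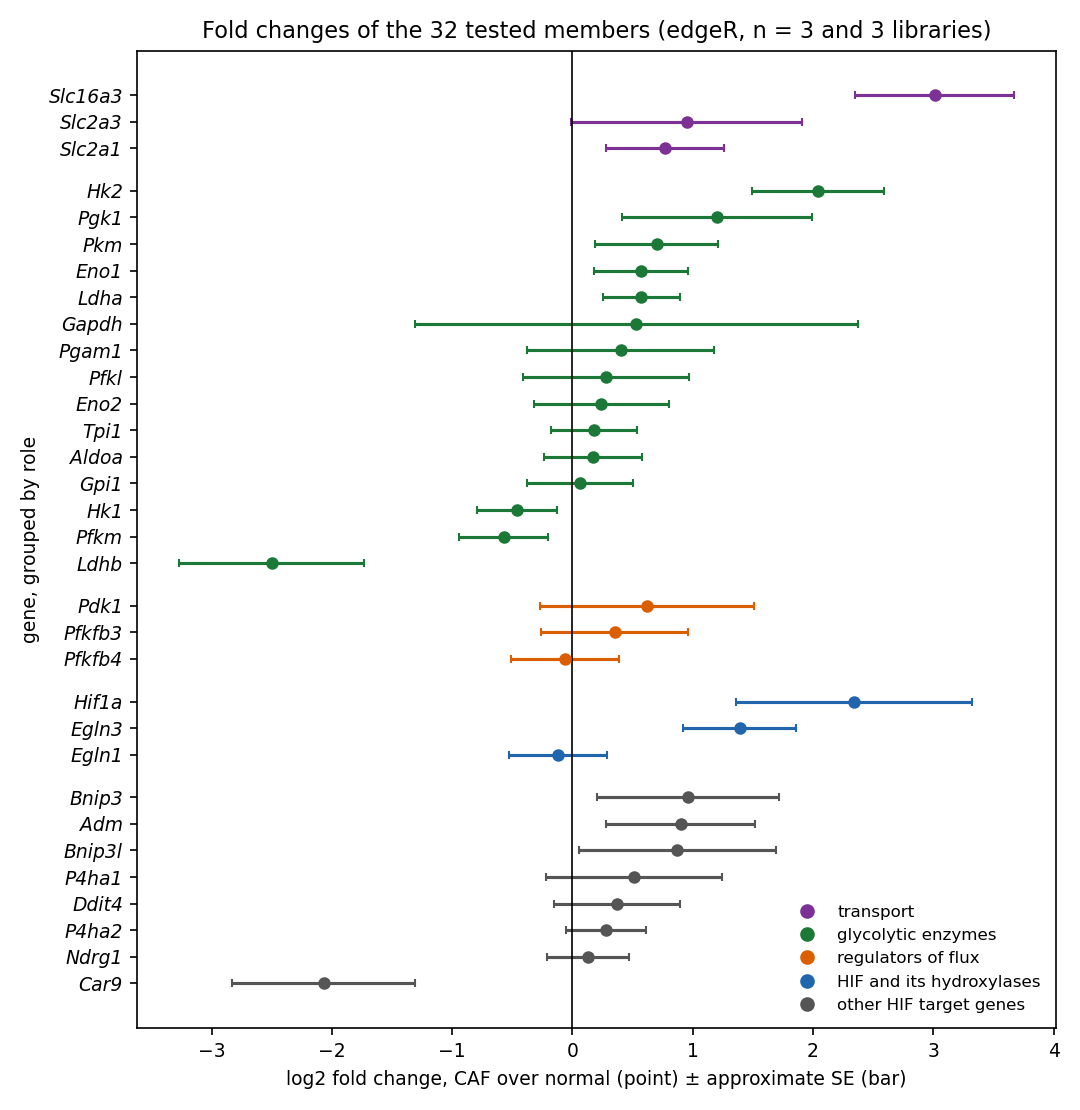
Log2 fold change of CAF over normal (x axis) for the 32 tested members, ordered by role, with the approximate standard error from edgeR. Slc16a3 has the highest value, 3.01, and Ldhb the lowest, -2.50, while most of the glycolytic enzymes lie within 1 unit of 0.

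Slc16a3 encodes MCT4, the transporter that exports lactate from strongly glycolytic cells, and it had the smallest p of all members. Its level was 274, 167 and 79.4 CPM in CAF libraries 1, 2 and 3, against 15.9, 8.87 and 40.0 CPM in normal libraries 1, 2 and 3. The groups do not overlap, and the lowest CAF library was 1.98 times the highest normal library, normal library 3. The gene was 8.07-fold higher in CAF, a log2 fold change of 3.01 ± 0.66 (SE), with an adjusted p of 0.0760 by edgeR and 0.000675 by DESeq2. The GC side of the libraries was also fitted as a block, an alternative added once the data had been seen, which called 1.19% of all genes (1.04% higher and 0.148% lower in CAF). There Slc16a3 was the 1 member that passed (log2 fold change 3.53, adjusted p = 0.0432 by edgeR). Within the GC sides the difference was of like size: 3.56 on the log2(CPM + 1) scale for CAF libraries 2 and 3 against normal library 2, and 3.38 for CAF library 1 against normal libraries 1 and 3.

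The glucose importers had smaller fold changes and overlapping groups. Slc2a1, or GLUT1, the widely expressed glucose transporter, was at 217, 110 and 64.2 CPM in CAF libraries 1, 2 and 3 and at 98.3, 73.5 and 52.5 CPM in normal libraries 1, 2 and 3. The groups overlap, since CAF library 3 lies below normal libraries 1 and 2 (log2 fold change 0.77 ± 0.49 SE, edgeR adjusted p = 0.534). Slc2a3, or GLUT3, a transporter of high affinity for glucose, was at 5.85, 16.8 and 8.12 CPM in CAF libraries and at 3.67, 0 and 13.8 CPM in normal libraries. A count of 0 in normal library 2 allows a level of up to 3.80 CPM, the level of 3 counts, a limit that covers counting error only.

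Hk2, a hexokinase that is low in most resting adult tissues, was at 105, 54.9 and 37.1 CPM in CAF libraries 1, 2 and 3. Its level was 24.5, 10.1 and 10.0 CPM in normal libraries 1, 2 and 3. All 3 CAF libraries lie above all 3 normal libraries, and the lowest CAF library was 1.51 times the highest normal library, normal library 1. Hk2 was 4.12-fold higher in CAF (log2 fold change 2.04 ± 0.55 SE, edgeR adjusted p = 0.117 and 0.0188 by DESeq2), and 6.27-fold higher without normal library 1. Its housekeeping relative Hk1 was at 117, 84.9 and 79.5 CPM in CAF libraries and between 91.3 and 157 CPM in normal libraries, where the groups overlap. The ratio of Hk2 to Hk1 counts within a library, which needs no scaling between libraries, was 0.901, 0.647 and 0.466 in CAF and 0.181, 0.0683 and 0.116 in normal libraries. The ratios do not overlap, and the mean log2 ratio was 2.52 higher in CAF (p = 0.1 by a two-sided exact permutation test, the smallest p that 3 against 3 libraries can give; 0.333 adjusted over 10 pairs). Ratios between genes also depend on how well each 3′ end is captured, so they are compared here between libraries only.

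The lactate dehydrogenase subunits differed in opposite directions, Ldhb against 2 of the 3 normal libraries only. Ldha, the muscle-type subunit and a classical HIF target, was at 645, 757 and 523 CPM in CAF libraries 1, 2 and 3, against 476, 465 and 355 CPM in normal libraries 1, 2 and 3. The groups do not overlap, at a 1.49-fold difference (log2 fold change 0.57 ± 0.32 SE, edgeR adjusted p = 0.462). Ldhb, the heart-type subunit of oxidative tissues, was at 51.2, 69.6 and 77.5 CPM in CAF libraries, against 466, 608 and 53.8 CPM in normal libraries. Normal library 3 thus lies within the CAF range, while normal libraries 1 and 2 lie far above it. Over all libraries Ldhb had a log2 fold change of -2.50 ± 0.77 (SE), with an adjusted p of 0.167 by edgeR and 0.0187 by DESeq2. Without normal library 3, where 10.0% of all genes were called (3.47% higher and 6.57% lower in CAF), Ldhb passed as lower in CAF (log2 fold change -3.07, adjusted p = 0.00494 by edgeR), and against normal library 3 alone its sign turned (0.37, adjusted p = 0.724). The Ldha to Ldhb ratio was 12.4, 10.9 and 6.75 in CAF libraries, against 1.02, 0.765 and 6.54 in normal libraries, so that normal library 3 lies next to the lowest CAF library (mean log2 difference 2.49, exact permutation p = 0.1, adjusted 0.333). Markers of gland cells were highest in normal libraries 1 and 2, as was Ldhb, and their part in its level was not tested.

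Car9 followed the same library pattern. It encodes carbonic anhydrase IX, a membrane enzyme that is a standard hypoxia marker in tumours and is also made by normal gastric epithelium. It was at 23.4, 29.7 and 21.6 CPM in CAF libraries 1, 2 and 3, against 197, 98.8 and 15 CPM in normal libraries 1, 2 and 3. All 3 CAF libraries lie between normal library 3 and the other normal libraries, in which gland cell markers were highest; the part of gland RNA in this was not tested. The log2 fold change was -2.07 ± 0.76 (SE; edgeR adjusted p = 0.247). It was -2.64 without normal library 3 (adjusted p = 0.0112), -1.23 without normal library 1 (0.724), -0.99 with the number of mice per library as a covariate (0.746) and 0.80 against normal library 3 alone (0.556).

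Most other enzymes of the pathway from glucose phosphate to pyruvate showed small differences with overlapping groups. Pkm, pyruvate kinase of the muscle type, was at 2930, 1260 and 976 CPM in CAF libraries 1, 2 and 3 and at 1300, 1210 and 673 CPM in normal libraries. Eno1, or enolase 1, was at 398, 259 and 186 CPM in CAF and 248, 176 and 140 CPM in normal libraries, and its neural relative Eno2 at 38.0, 23.0 and 28.7 CPM in CAF and 13.9, 13.9 and 48.8 CPM in normal libraries. Both enolases overlap between the groups, and the highest library was CAF library 1 for Eno1 and normal library 3 for Eno2. Aldoa, the muscle-type aldolase, was at 1220, 646 and 519 CPM in CAF and 819, 616 and 682 CPM in normal libraries. Tpi1 (triosephosphate isomerase) and Gpi1 (glucose phosphate isomerase) were at 294 to 496 and 165 to 411 CPM in CAF libraries, and at 256 to 461 and 176 to 302 CPM in normal libraries. Pgk1, phosphoglycerate kinase, was at 67.3, 29.9 and 20.7 CPM in CAF libraries, against 32.2, 2.53 and 11.3 CPM in normal libraries (log2 fold change 1.20 ± 0.79 SE, edgeR adjusted p = 0.553). The 2.30-fold difference of Pgk1 was 5.41-fold without normal library 1 and 1.51-fold without CAF library 1. Normal library 2 had only 2 counts of Pgk1. Pgam1, phosphoglycerate mutase, was at 3.52 to 19.0 CPM in CAF and 2.50 to 9.39 CPM in normal libraries. Mouse Gapdh, Pgk1, Pgam1, Ldha, Aldoa, Tpi1 and Eno1 have processed pseudogenes of nearly the same sequence, so counts of these genes are uncertain where reads could be split or dropped.

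The phosphofructokinase subunits and the flux regulators had overlapping groups. Pfkl, the liver-type subunit, was at 212, 57.6 and 41.1 CPM in CAF libraries and 131, 74.7 and 41.3 CPM in normal libraries, and Pfkm, the muscle-type subunit, at 29.3, 17.5 and 19.5 CPM in CAF and 28.2, 27.9 and 40.0 CPM in normal libraries (Pfkm log2 fold change -0.57 ± 0.37 SE, edgeR adjusted p = 0.556). Both subunits were thus highest in a different library, Pfkl in CAF library 1 and Pfkm in normal library 3. Pfkfb3, which makes the phosphofructokinase activator fructose 2,6-bisphosphate, was at 13.2, 38.6 and 24.3 CPM in CAF and 15.9, 38.0 and 8.75 CPM in normal libraries, and its relative Pfkfb4 at 20.5, 13.9 and 15.4 CPM in CAF and 10.6, 16.5 and 25.0 CPM in normal libraries. Pdk1, a kinase that inactivates pyruvate dehydrogenase, was at 4.19 to 7.32 CPM in CAF and at 3.26, 8.87 and 0 CPM in normal libraries.

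**Figure D3:**
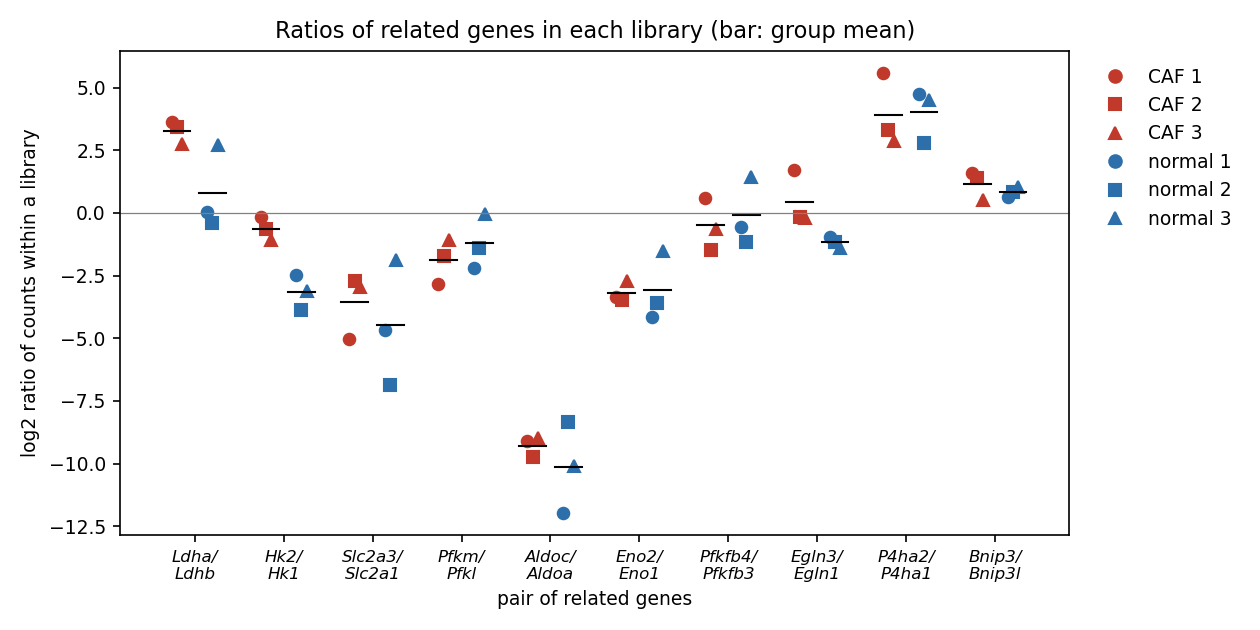
Log2 ratio of the counts of 2 related genes within each library (y axis; 0.5 counts added to each gene) for 10 pairs, CAF in red left of normal in blue, with bars at group means. The ratios of Ldha to Ldhb, Hk2 to Hk1 and Egln3 to Egln1 do not overlap between the groups, and normal library 3 is at 2.71 for Ldha to Ldhb, beside 2.75 in CAF library 3.

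Of the 10 pairs, 3 had ratios that did not overlap between the groups. Besides the 2 pairs above it was Egln3 to Egln1, a ratio of 3.28, 0.889 and 0.863 in CAF libraries, against 0.510, 0.451 and 0.373 in normal libraries (mean log2 difference 1.62, exact permutation p = 0.1, adjusted 0.333). The other 7 pairs overlapped, with mean log2 differences from -0.65 for Pfkm to Pfkl up to 0.90 for Slc2a3 to Slc2a1. Among the 32 tested members, 4 had CAF levels wholly above the normal levels (Slc16a3, Hk2, Egln3 and Ldha), as had 10.6% of all genes, and 0 had CAF levels wholly below them, as had 9.35%.

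Gapdh, the dehydrogenase often used as a reference gene, stood apart in its spread between libraries. It had 16, 6905 and 87 counts in CAF libraries 1, 2 and 3 and 1610, 10 and 10 counts in normal libraries 1, 2 and 3, or 23.4, 953 and 11.8 CPM in CAF and 657, 12.7 and 12.5 CPM in normal libraries. The libraries with high counts are 1 of each group, and the highest level was 81.0 times the lowest. Of the 14228 genes, 19 were over 5 times higher in both of these libraries than in each of the rest, and Gapdh was the 1 gene among them that passed the filter on low counts. Its standard error, 1.84 on the log2 scale, was the widest of the members (log2 fold change 0.53, adjusted p = 0.936 by edgeR). The log2 fold change of Gapdh was -3.74 without CAF library 2 and 4.69 without normal library 1. In sums over the enzymes it is left out below.

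The summed level of the glycolytic enzymes without Gapdh was 6740, 3900 and 2970 CPM in CAF libraries 1, 2 and 3, against 4440, 3920 and 2640 CPM in normal libraries 1, 2 and 3. As a share of raw counts, in which gland RNA takes a part of the total, the same enzymes made up 0.715%, 0.440% and 0.342% in CAF libraries and 0.334%, 0.343% and 0.275% in normal libraries. CAF library 1 was the highest on both scales. The order of the others differs: CAF library 2 lies below normal library 1 in CPM and above it in the share of counts, and CAF library 3 lies below normal library 2 in CPM and within its exact binomial 95% interval (0.331% to 0.355%) in the share. The members' highest level was in CAF library 1 for 15 of the 33 genes and for 10 of the 16 glycolytic enzymes, and the lowest was in normal library 3 for 11 of the 32 tested members. Without CAF library 1 the median log2 fold change of the members was 0.23, and the fold changes of Aldoa, Egln1, Gpi1, Pfkl and Pgam1 had the other sign. In bulk samples, a lower share of cells that make a transcript and less of it per cell cannot be told apart.

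Among the genes that sense oxygen, Hif1a, the oxygen-regulated subunit itself, was at 7.32, 65.4 and 60.2 CPM in CAF libraries 1, 2 and 3, against 2.86, 22.8 and 3.75 CPM in normal libraries 1, 2 and 3. CAF library 1 lies below normal library 2, so the groups overlap. The log2 fold change was 2.34 ± 0.98 (SE; edgeR adjusted p = 0.310), and 1.37 with the GC side as a block (0.118). Without normal library 2 the 5.06-fold difference of Hif1a was 14.1-fold, a value that rests on 7 and 3 counts in normal libraries 1 and 3. Within the GC sides it was 1.42 on the log2(CPM + 1) scale for CAF libraries 2 and 3 against normal library 2, and 0.96 for CAF library 1 against normal libraries 1 and 3. HIF1A is regulated mainly through the stability of the protein, which these data do not measure. Egln3, or PHD3, a prolyl hydroxylase that is itself a HIF target, was at 68.8, 42.0 and 31.4 CPM in CAF libraries, against 26.1, 13.9 and 11.3 CPM in normal libraries. The groups do not overlap (2.62-fold, log2 fold change 1.39 ± 0.47 SE, edgeR adjusted p = 0.213 and 0.124 by DESeq2). Egln1, or PHD2, the main oxygen sensor of most cells, was at 20.5, 47.2 and 36.4 CPM in CAF and 51.4, 31.7 and 31.3 CPM in normal libraries.

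Promoter sequences are shown for the 6 members of smallest p whose RefSeq promoter holds the HIF core ACGTG on either strand, to show where that core lies in the genes discussed above. A match describes the letters and not binding. Capitals mark ACGTG, or its reverse complement CACGT, which share letters where they form the E-box CACGTG of MYC and its relatives. Windows run from 250 bases before to 50 bases after the RefSeq start (build GRCm38.p6, the same assembly as mm10), 5′ to 3′ along the gene.
Slc16a3 (chr11:120948817-120949116, plus strand): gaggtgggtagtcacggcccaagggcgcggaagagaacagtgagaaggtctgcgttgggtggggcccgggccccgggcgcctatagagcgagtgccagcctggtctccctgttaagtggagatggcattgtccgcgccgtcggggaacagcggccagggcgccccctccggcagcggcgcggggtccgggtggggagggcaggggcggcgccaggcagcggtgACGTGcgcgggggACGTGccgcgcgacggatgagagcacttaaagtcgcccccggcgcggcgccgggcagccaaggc
Hk2 (chr6:82774405-82774704, minus strand): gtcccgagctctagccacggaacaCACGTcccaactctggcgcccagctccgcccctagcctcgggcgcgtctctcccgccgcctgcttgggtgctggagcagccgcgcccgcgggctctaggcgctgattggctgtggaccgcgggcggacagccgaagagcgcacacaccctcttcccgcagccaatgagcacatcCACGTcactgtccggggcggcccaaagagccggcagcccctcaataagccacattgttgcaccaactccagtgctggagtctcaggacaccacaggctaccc
Egln3 (chr12:54203825-54204124, minus strand): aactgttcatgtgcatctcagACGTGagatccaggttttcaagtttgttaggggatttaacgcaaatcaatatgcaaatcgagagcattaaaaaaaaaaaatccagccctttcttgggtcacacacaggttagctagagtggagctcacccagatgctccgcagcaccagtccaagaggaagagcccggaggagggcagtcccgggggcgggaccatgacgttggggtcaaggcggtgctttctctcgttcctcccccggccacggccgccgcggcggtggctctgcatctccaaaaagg
Car9 (chr4:43506776-43507075, plus strand): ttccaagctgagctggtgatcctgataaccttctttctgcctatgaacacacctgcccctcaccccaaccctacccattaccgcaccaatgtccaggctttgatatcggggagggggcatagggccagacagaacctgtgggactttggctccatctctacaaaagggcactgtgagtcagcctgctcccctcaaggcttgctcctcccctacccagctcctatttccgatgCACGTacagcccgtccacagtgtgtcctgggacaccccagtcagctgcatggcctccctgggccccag
Hif1a (chr12:73907617-73907916, plus strand): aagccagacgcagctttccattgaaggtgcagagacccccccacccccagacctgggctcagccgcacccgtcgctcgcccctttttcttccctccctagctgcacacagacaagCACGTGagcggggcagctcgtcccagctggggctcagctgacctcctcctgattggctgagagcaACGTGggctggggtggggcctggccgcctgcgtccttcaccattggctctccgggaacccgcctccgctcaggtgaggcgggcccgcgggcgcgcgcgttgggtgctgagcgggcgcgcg
Ldha (chr7:46845554-46845853, plus strand): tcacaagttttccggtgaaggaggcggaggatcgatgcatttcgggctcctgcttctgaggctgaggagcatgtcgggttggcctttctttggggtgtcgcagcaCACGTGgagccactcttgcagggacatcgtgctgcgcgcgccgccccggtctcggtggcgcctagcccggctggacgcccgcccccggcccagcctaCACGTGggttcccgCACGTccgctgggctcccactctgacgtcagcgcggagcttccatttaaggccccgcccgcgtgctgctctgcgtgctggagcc
Slc16a3 has 2 matches, the nearer starting 14 bases before the RefSeq start, and Hk2 has 2, the nearer 52 bases before it. Car9, which differed in the opposite direction, has 1 match at 18 bases before the start, and Egln3 has 1 at 229 bases. Ldha has 5 matches, counting both strands, and Hif1a 3, which include 2 and 1 copies of CACGTG. Ldha has 2 promoters, of which only 1 holds ACGTG, and that one is shown. The Ldhb promoter window has no ACGTG. In all, 21 of the 30 members with a promoter in the table (70.0%) had ACGTG in at least 1 of their promoters, against 21.8% of all 27025 genes. With GCGTG counted as well, 81.4% of the 43 member promoters had a match, against 43.8% of all 32851 promoters. The list was drawn up from glycolytic genes and known HIF targets. In the annotation of the same assembly the Slc16a3 gene spans chromosome 11 from 120948480 to 120960868, Hk2 chromosome 6 from 82725025 to 82774454, and Ldhb chromosome 6 from 142490249 to 142507957. Hif1a spans chromosome 12 from 73901375 to 73947530, and Ldha chromosome 7 from 46841475 to 46855627. The windows shown for Slc16a3, Hif1a and Ldha lie inside these annotated spans.

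The remaining HIF targets had overlapping groups. Bnip3 and Bnip3l, which mark mitochondria for removal, were at 27.8, 81.6 and 60.7 CPM and at 8.78, 31.3 and 42.1 CPM in CAF libraries, and at 6.53, 62.1 and 23.8 CPM and 4.08, 34.2 and 11.3 CPM in normal libraries. Both were low in CAF library 1 and normal libraries 1 and 3, the libraries on the GC-rich side, and high in the others. Adm, the vasodilator peptide adrenomedullin, was at 46.8, 75.9 and 147 CPM in CAF and 29.8, 24.1 and 93.8 CPM in normal libraries. Ddit4, an inhibitor of the kinase mTORC1, was at 86.7 to 325 CPM in CAF and 115 to 220 CPM in normal libraries, and Ndrg1, a stress-induced gene, at 65.8 to 122 CPM in CAF and 78.8 to 109 CPM in normal libraries. The groups overlap for each of these genes. The collagen prolyl hydroxylase subunits P4ha1 and P4ha2 were at 2.93 to 13.0 and 95.1 to 176 CPM in CAF and at 3.75 to 13.9 and 98.8 to 114 CPM in normal libraries.

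The members of lowest GC content differed most between the 2 sides of the GC trend. The difference between the mean of CAF library 1 and normal libraries 1 and 3 and the mean of the other 3 libraries was -3.10 on the log2(CPM + 1) scale for Hif1a, which has the lowest GC content of the 32 members (41.3%). It was -1.97 for Bnip3 (41.6%) and -2.11 for Bnip3l (41.9%), while the members of highest GC content, Ddit4 (57.9%), Pkm (57.7%) and Eno1 (57.4%), were at 0.28, 0.26 and 0.23. The highest difference was 1.18, for Pgk1 (49.7%), so the order does not hold across the upper range. Over the 32 members, which share the same 6 libraries, Pearson's r between GC content and this difference was 0.779. The sides were set by each library's own GC trend over the genes tested, so a positive r was built in. It cannot show a trait of the members. CAF was higher than normal on both sides for 12 members (37.5%, against 31.4% of all genes), was lower on both for 4, and had opposite signs on the sides for 16 (50.0%, against 40.6% of all genes). Slc16a3, Hk2, Egln3, Ldha, Pgk1 and Hif1a had the same sign on both sides. For Slc16a3, Hk2, Egln3 and Ldha this was fixed in advance, since their groups do not overlap.

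**Figure D4:**
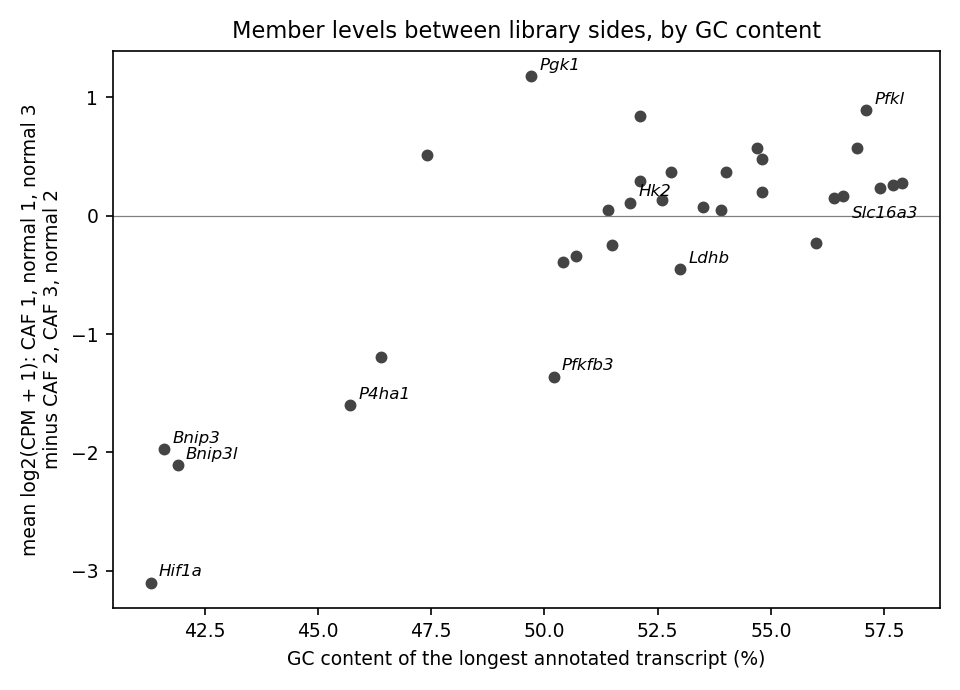
GC content of the longest annotated transcript of each tested member (x axis, percent) against the difference in mean log2(CPM + 1) between CAF library 1, normal library 1 and normal library 3 and the other 3 libraries (y axis). Hif1a, Bnip3 and Bnip3l, the members of lowest GC content, lie lowest, at -3.10, -1.97 and -2.11.

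Which normal libraries served as the comparison changed several members. Against normal library 3, the normal library with the lowest gland share, all 3 CAF libraries were higher for 15 of 32 members (30.5% of all genes), among them Slc16a3, Hk2, Egln3, Ldha, Pkm, Eno1 and Hif1a, and lower for 3 (29.3% of all genes), Pfkm, Eno2 and Pfkfb4. Against normal libraries 1 and 2 they were higher for 7 (21.7% of all genes), Slc16a3, Hk2, Egln3, Ldha, Slc2a3, Eno2 and Adm, and lower for 3 (19.4% of all genes), Hk1, Ldhb and Car9. Slc16a3, Hk2, Egln3 and Ldha must be higher in both comparisons, since their groups do not overlap. The median log2 fold change of the members was 1.04 against normal library 3 alone, a fit in which the median of all genes was 0.29, and 0.20 against normal libraries 1 and 2, where it was 0.06. Without normal library 3, Slc16a3 passed as higher in CAF (12.5-fold, adjusted p = 0.0196 by edgeR), beside Ldhb and Car9 as lower. Against normal library 3 alone 0 of 12572 genes passed by edgeR.

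**Figure D5:**
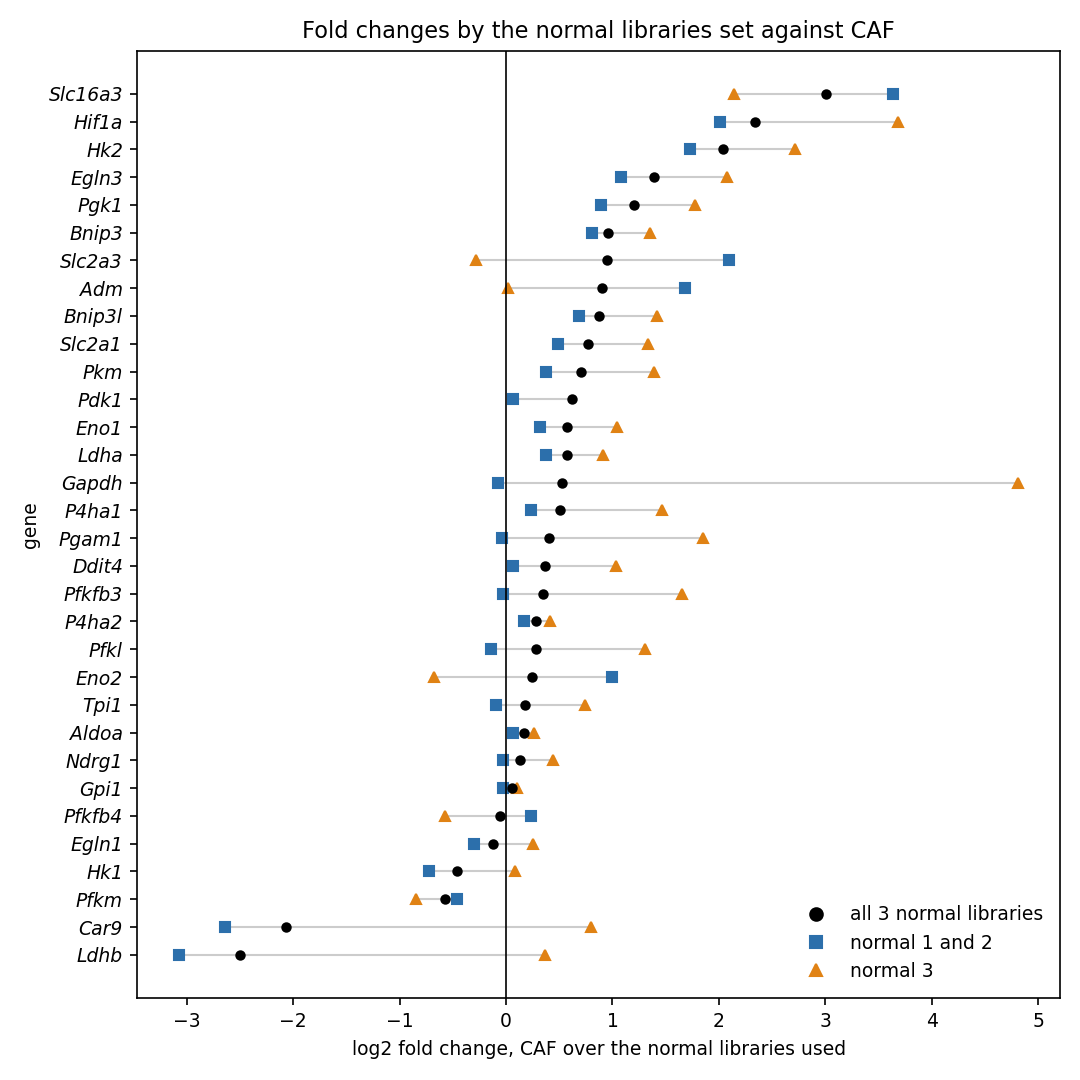
Log2 fold change of CAF (x axis) over all 3 normal libraries (black), normal libraries 1 and 2 (blue) or normal library 3 alone (orange) for each tested member. Pdk1 has no value against normal library 3, where its count is 0, and Ldhb and Car9 lie at -3.07 and -2.64 over normal libraries 1 and 2 but at 0.37 and 0.80 over normal library 3.

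Other genes of the same metabolism were taken from 6 lists, and none of them passed by edgeR. Of their 92 genes tested, 22 had an unadjusted p under 0.05 (15.3% of all genes did), 11 higher and 11 lower in CAF. DESeq2, which gave an adjusted p to 106 of the listed genes, called 6 higher and 10 lower (3.12% and 4.17% of all genes). Among 15 tested relatives and side branches of glycolysis, the median log2 fold change was -0.14, with 3 genes wholly above and 5 wholly below normal in CAF (10.6% and 9.35% of all genes). The smallest p values belonged to Galm, the mutarotase that interconverts glucose forms, and Slc2a4, the insulin-responsive transporter GLUT4. Galm was at 5.85, 8.83 and 15.3 CPM in CAF libraries, against 46.1, 69.7 and 36.3 CPM in normal libraries (log2 fold change -2.25 ± 0.46 SE, edgeR adjusted p = 0.0668; it passed in 3 of 16 other fits). Slc2a4 was at 14.6, 4.42 and 7.17 CPM in CAF, against 83.7, 95 and 18.8 CPM in normal libraries (adjusted p = 0.0816). Both genes lie lower in every CAF library than in any normal library.

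The list on pyruvate entry holds the mitochondrial pyruvate carrier (Mpc1 and Mpc2), subunits of pyruvate dehydrogenase, the kinases that inhibit it and the phosphatases that activate it. Of its 11 tested genes 10 had a negative fold change (46.1% of all genes did), with a median of -0.62, and 4, Mpc1, Mpc2, Dlat and Pdk2, had CAF levels wholly below normal (9.35% of all genes). The gene with a positive fold change was the kinase Pdk3, and these names were chosen after their values were seen. Mpc1 was separated narrowly, at 20.5 CPM (14 counts) in CAF library 1 and 21.3 CPM (17 counts) in normal library 3. Dlat had only 2 counts in CAF library 1 and 5 in normal library 3. Mpc2, a subunit of the mitochondrial pyruvate carrier, was at 119, 160 and 151 CPM in CAF libraries, against 432, 538 and 260 CPM in normal libraries (log2 fold change -1.52 ± 0.36 SE, edgeR adjusted p = 0.0925 and 0.00392 by DESeq2). Pdk2, a pyruvate dehydrogenase kinase, was at 17.6, 12.4 and 15.7 CPM in CAF, against 64.1, 26.6 and 41.3 CPM in normal libraries (adjusted p = 0.117 by edgeR). For both genes every normal library lies above every CAF library. The gland share was 20.4%, 16.7% and 4.22% in normal libraries 1, 2 and 3 and 0.643% to 0.89% in CAF. Its part in the difference was not tested.

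In the list of gluconeogenesis and glycogen, 11 genes tested had a median of 0.09. Pygb, brain-type glycogen phosphorylase, was at 344, 197 and 184 CPM in CAF, against 93.0, 97.5 and 66.3 CPM in normal libraries (log2 fold change 1.49 ± 0.37 SE, edgeR adjusted p = 0.0954 and 0.0103 by DESeq2). Fbp2, the muscle-type fructose bisphosphatase, was at 2.93, 5.66 and 3.38 CPM in CAF, against 46.5, 50.7 and 2.50 CPM in normal libraries, a pattern like that of Ldhb and Car9. The pentose phosphate list (7 tested, median 0.11) and the list of HIF subunits and oxygen sensing (11 tested, median 0.12) had 0 genes without overlap. Their genes of smallest p were Taldo1 (transaldolase) and H6pd in the first and P4htm and Vhl, the ubiquitin ligase subunit that recognises HIF, in the second, with adjusted p-values of 0.641, 0.678, 0.655 and 0.784 by edgeR. Among 37 further hypoxia response genes the median was 0.37, with 7 wholly above and 1 wholly below normal in CAF (10.6% and 9.35% of all genes). P4ha3, a collagen prolyl hydroxylase subunit, was at 30.7, 70.4 and 61.3 CPM in CAF, against 5.71, 13.9 and 10.0 CPM in normal libraries (log2 fold change 2.54 ± 0.50 SE, edgeR adjusted p = 0.0617). Car12, a membrane carbonic anhydrase, was at 2.93, 3.86 and 4.06 CPM in CAF, against 29.8, 77.3 and 8.75 CPM in normal libraries (adjusted p = 0.0816). Vegfa, the vascular growth factor and best known HIF target, was chosen after its values were seen and was at 192, 214 and 151 CPM in CAF and 214, 182 and 233 CPM in normal libraries.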

How the data were processed

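Per the submitters' processing notes, reads were handled with cutadapt, STAR, HTSeq and DESeq2 (no versions given) on build mm10. Use of strand, the annotation and collapse of molecular identifiers were not given in the sources used here. Raw counts per gene symbol, as the authors deposited them, were tested here. A normalized signal and regularized log2 values, named so per the file headers, were not used. The authors' deposited log2 fold change and p-value for each gene were used only where named. Every listed gene had at least 6 counts in some library.

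Counts were tested with edgeR 4.0.16 (filterByExpr, trimmed mean of M-values, quasi-likelihood F test, Benjamini-Hochberg adjustment over 10148 genes, threshold 0.05). Standard errors were derived from the fold change and F and are approximate. DESeq2 1.42.0 and limma-voom 3.58.1 served as alternatives. The scripts were tested on simulated data. Each library had its own mouse or 2 mice, so p-values measure the spread between them. Ratios used 0.5 added counts and exact permutation tests in scipy 1.17.1. GC content came from the longest GENCODE M21 transcript per symbol, found for 98.8% of genes tested.

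The members, lists and tests were chosen with earlier results of these data known. Values are given in every library for the 10 members of smallest p and for members whose groups do not overlap. Related pairs are shown by their ratio in every library, and some of their genes are given by range only. Of each further list the 2 genes of smallest p are named. Intervals and floors (3 counts) cover counting error only. The replicate numbers of CAF and normal libraries do not pair the samples.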

Additional observations from a re-analysis of the deposited data

How the results depend on the processing

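The number of members called by edgeR was 0, and 0 also under other size factors, upper-quartile factors, both other filters, the number of mice as a covariate, removal of the gland marker genes, limma-voom and 5 of the 6 fits without 1 library. It was 3 with DESeq2 (Hk2, Ldhb and Slc16a3), 1 with the GC side as a block (Slc16a3), and 0 to 3 with 1 library left out (3 without normal library 3). Among all genes 112 were called, against 935 with DESeq2, 65 with limma-voom, 0 against normal library 3 alone and 0 to 1193 with 1 library left out (0 without normal library 1, 4 without CAF library 2, 6 without normal library 2, 29 without CAF library 3, 49 without CAF library 1 and 1193 without normal library 3). The causes were not tested. Against normal library 3 alone 6 members turned sign: Ldhb (0.37), Car9 (0.80), Slc2a3 (-0.28), Hk1 (0.08), Eno2 (-0.68) and Egln1 (0.25). With 1 library left out it was 5 members without CAF library 1 (Gpi1, Pfkl, Aldoa, Pgam1 and Egln1), 3 without CAF library 2 (Gapdh, Pfkfb3 and Pfkfb4), 1 without CAF library 3 (Ndrg1), 2 without normal library 1 (Eno2 and Egln1), 3 without normal library 2 (Gpi1, Gapdh and Eno2) and 8 without normal library 3 (Gpi1, Pfkl, Tpi1, Gapdh, Pgam1, Pfkfb3, Pfkfb4 and Ndrg1). It was 4 with limma-voom (Pfkl, Gapdh, Pgam1 and Pfkfb4) and 4 with the GC side as a block (Pfkfb3, Pfkfb4, Ndrg1 and P4ha1). Among the named genes of the further lists, signs turned against normal library 3 alone for Fbp2 (0.82), H6pd (-0.31) and Vhl (-0.14), without normal library 3 for P4htm (0.48; -1.43 to 0.48 with 1 library left out), and without normal library 1 for Vhl (-0.04; up to 0.76). Slc16a3, Hk2, Egln3, Hif1a, Ldha, Slc2a1, Pgk1 and Pfkm kept their sign in all 16 other fits. Log2 fold changes were 2.14 to 3.64 for Slc16a3, 1.55 to 2.72 for Hk2, 1.04 to 2.08 for Egln3 and 1.37 to 3.82 for Hif1a. For Slc16a3, Hk2, Egln3 and Ldha the sign was largely fixed in advance where libraries were left out, since their groups do not overlap. The remaining fits use the same 6 libraries. The adjusted p of Slc16a3 ranged from 0.000675 to 0.479. With 1 count in place of 0.5 added, all 10 ratio differences kept their direction. That of Aldoc to Aldoa fell from 0.85 to 0.26, a larger move than its CAF standard deviation of 0.39. Aldoc had at most 7 counts in any library. With 1 library left out, ranges crossed 0 for Slc2a3 to Slc2a1 (-0.3 to 2.2) and Aldoc to Aldoa (-0.07 to 1.74). They also did for Eno2 to Eno1 (-0.63 to 0.69), Pfkfb4 to Pfkfb3 (-0.96 to 0.37) and P4ha2 to P4ha1 (-0.94 to 0.43).

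No paired analysis was possible because the labels number only normal libraries 1 and 2. The CAF libraries and normal library 3 carry mouse numbers instead. A fit with 1 library left in a group assumes that it varies like the other group. At the lowest depth, 3 counts in CAF library 1 stand for 4.39 CPM, which limits what can be said of Slc2a3, Pdk1, P4ha1 and Aldoc. Low counts also limit Hif1a, with 5 counts in CAF library 1 and 7 and 3 in normal libraries 1 and 3. The same holds for Pgk1 (2 counts in normal library 2), Pgam1 (2 in normal library 3), and Car12 and Fbp2 (2 each in CAF library 1).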

Other observations

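Several genes of sugar and lactate metabolism were near 0 in the CAF libraries and had counts mainly in normal libraries 1 and 2; they were chosen after their values were seen. Slc2a5, the fructose transporter GLUT5, was at 1.46, 0.552 and 0.541 CPM in CAF libraries 1, 2 and 3, against 16.7, 13.9 and 0 CPM in normal libraries 1, 2 and 3. Pklr, the pyruvate kinase of liver and red blood cells, was at 0, 0.552 and 0.406 CPM in CAF and 11.4, 10.1 and 0 CPM in normal libraries. Slc16a7, the monocarboxylate transporter MCT2, had 0, 0 and 1 counts in CAF and 8, 22 and 0 counts in normal libraries. These genes were below the filter on low counts and were not tested by edgeR.

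Further hypoxia-response genes with CAF levels wholly above normal, likewise chosen after their values were seen, included Angptl4, a secreted inhibitor of lipoprotein lipase, at 323, 508 and 361 CPM in CAF and 22, 44.3 and 143 CPM in normal libraries. Ndufa4l2, a mitochondrial protein induced by HIF1A, was at 148, 87.9 and 47.7 CPM in CAF and 8.98, 2.53 and 30.0 CPM in normal libraries. As for Slc16a3, normal library 3 was the highest of the normal libraries for both.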
